A study of Mus musculus with 8 samples.

Results

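The respiratory chain subunits of mouse liver were described here as the genes whose symbol names a subunit of NADH dehydrogenase (complex I), succinate dehydrogenase (complex II), the cytochrome bc1 complex (complex III), cytochrome c oxidase (complex IV) or ATP synthase (complex V). The symbols searched were those that begin with Ndufa, Ndufb, Ndufc, Ndufs or Ndufv and a digit, Uqcr, Cox4 to Cox8, Atp5, mt-Nd, mt-Co, mt-Cytb or mt-Atp, and Sdha to Sdhd. A gene also needed at least 80 reads summed over the 8 libraries. These criteria gave 90 members among 24317 genes, of which 78 are encoded in the nucleus and 12 in mitochondrial DNA. The nuclear members comprised 37 genes of complex I, 4 of complex II, 8 of complex III, 12 of complex IV and 17 of complex V. The mitochondrial members comprised 7 genes of complex I, 1 of complex III, 3 of complex IV and 1 of complex V.

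RNA was sequenced from livers of C57BL/6 mice that ate sodium-rich chow with 6% NaCl for 6 weeks (4 libraries, called high salt) or normal chow (4 libraries). No further treatment, allele or age is given in the labels, and both diets share the strain. The sequencing was of whole liver, so a lower level in fewer cells of a type cannot be told apart from less RNA per cell. Groups follow the diet label, although titles of high-salt libraries start with N; if labels had been exchanged, every direction below would turn. Whether each library stands for its own animal is not stated, so the spread behind the p-values may be partly technical.

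The respiratory chain passes electrons from NADH and succinate to oxygen and pumps protons across the inner mitochondrial membrane, and ATP synthase uses the proton gradient to make ATP. Complexes I, III, IV and V are built from subunits of both genomes, while complex II is built from nuclear genes alone. Mitochondrial DNA is transcribed as long precursors from which tRNAs are cut out between the messages, whereas each nuclear subunit has a promoter of its own. In liver the chain also takes up electrons from fatty acid and amino acid breakdown through ubiquinone.

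Total counts were 16620368 to 18639685 per library. Levels are given as CPM (counts of a gene per 1e+06 counts of the library) on library sizes scaled by TMM, the trimmed mean of M-values. Differences are log2 fold changes of high salt over normal chow from edgeR's quasi-likelihood test, with the standard error (SE), and adjusted p-values are Benjamini-Hochberg values over the 13341 genes tested. The liver label was checked against 9 hepatocyte markers. Their summed level was 141092 to 147334 CPM in high-salt and 139212 to 157333 CPM in normal-chow libraries. Most of that sum was Alb (106674 to 110721 against 104003 to 119164 CPM). Cps1 was lower in high salt without overlap (3880 to 5928 against 6560 to 7551 CPM), as in 3.37% of all genes in this direction. The other hepatocyte markers each overlapped. At an unadjusted p under 0.05, 1 hepatocyte marker was higher and 2 were lower, beside 5.33% and 5.60% of all genes. Skeletal and heart muscle markers summed to 1.26 to 2.67 CPM in high-salt and 0.850 to 4.92 CPM in normal-chow libraries. Summed sinusoidal endothelial markers were 397 to 434 CPM in high-salt and 453 to 490 CPM in normal-chow libraries, without overlap. Among them only Ehd3 (67.4 to 76.4 against 88.6 to 113 CPM) and Fcgr2b (74.0 to 84.0 against 86.3 to 95.7 CPM) did not overlap. Lower values in high salt without overlap occurred in 3.37% of all genes. Stab1, Stab2, Kdr, Pecam1, Clec4g and Lyve1 each overlapped. Summed Kupffer cell markers (546 to 688 against 625 to 647 CPM) overlapped. So did summed stellate cell and fibroblast markers (451 to 498 against 467 to 504 CPM). Of the Kupffer cell markers only Marco did not overlap (12.9 to 23.1 against 3.92 to 12.3 CPM). Higher values in high salt without overlap occurred in 2.98% of all genes. At an unadjusted p under 0.05, 1 Kupffer cell marker was higher and 1 was lower, beside 5.33% and 5.60% of all genes. B and plasma cell markers were 9.19 to 70.1 CPM in high-salt and 5.46 to 12.6 CPM in normal-chow libraries. The part of these markers in the values that follow was not tested.

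No difference of a respiratory chain message between the diets held up against the spread of the libraries after adjustment for all genes. None of the 89 members tested passed an adjusted p of 0.05, a threshold that 0.300% of all tested genes passed, 0.150% as higher in high salt and 0.150% as lower. The smallest adjusted p among members was 0.192, for Atp5s. At an unadjusted p under 0.05 there was 1 member with a higher level in high salt (Atp5s), beside 5.33% of all genes, and 2 members with a lower level (mt-Cytb and Sdhb), beside 5.60%. DESeq2 and limma-voom on the same counts also called 0 members, with smallest adjusted p of 0.109 and 0.201. Atp5s had an adjusted p of 0.109 to 0.421 over 17 alternatives of processing. The authors' deposited table of fold changes likewise lists 0 of the 90 members with an adjusted p under 0.05, among 217 such genes, and 3 members with an unadjusted p under 0.05.

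The intervals show how large a difference these libraries could hide. The 95% interval of the fold change lay within 1.5-fold in either direction for 85 of the 89 members, 74 nuclear and 11 mitochondrial, against 67.1% of all tested genes. It lay within 1.2-fold for 52 members, 50 nuclear and 2 mitochondrial, against 17.1% of all genes. The median SE was 0.09 for members and 0.13 for all tested genes, so these shares compare precision as well as size of difference. The 4 members whose interval passed 1.5-fold in a direction were Atp5s, Ndufb2, Ndufa4l2 and mt-Nd4l.

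**Figure D1:**
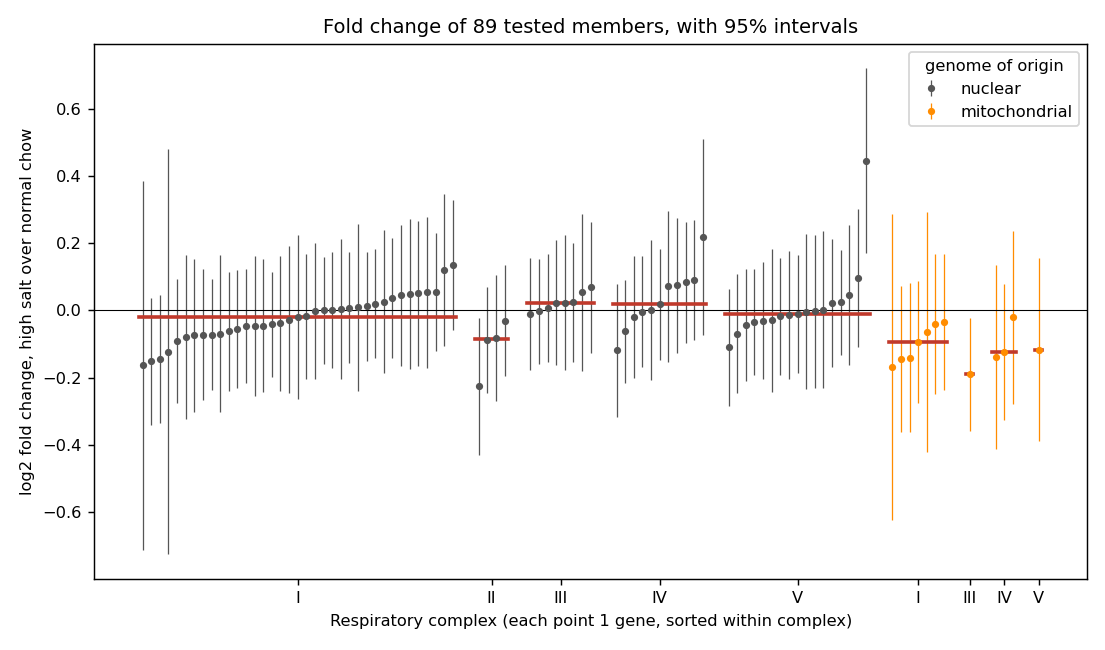
Log2 fold change of high salt over normal chow for the 89 tested members, each point 1 gene with its 95% interval, sorted within complex, with nuclear genes in grey on the left and mitochondrial genes in orange on the right; red lines are the medians of each group. The nuclear medians lie between -0.08 and 0.02, and all 12 mitochondrial points lie below 0 (9 of 12 with total-count library sizes). Of the 89 intervals 86 include 0, as do 89.1% of those of all tested genes.

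By genome of origin, the median log2 fold change was -0.12 over the 12 mitochondrial members, -0.003 over the 77 nuclear members tested and 0.006 over all tested genes. All 12 mitochondrial members had a value below 0, against 42 of 77 nuclear members and 48.7% of all genes. With library sizes taken as total counts, which shifts the median of all genes by 0.06, 9 of 12 mitochondrial members and 18 of 77 nuclear members were below 0, and the medians were -0.06 and 0.06. Leaving out 1 library at a time left 10 to 12 mitochondrial members below 0, with the 10 reached without normal-chow library 3. These genes, apart from mt-Nd6 on the opposite strand, share precursor transcripts, so the 12 are not independent of each other.

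By complex, the nuclear medians were -0.02 for complex I, -0.08 for complex II, 0.02 for complex III, 0.02 for complex IV and -0.01 for complex V. With total-count library sizes the medians of complexes I and V were above 0, at 0.04 and 0.05, and that of complex II was -0.02. Without normal-chow library 2, complexes III and IV were below 0, at -0.01 and -0.03. The mitochondrial medians were -0.09 for the 7 genes of complex I and -0.12 for the 3 of complex IV, and the single genes of complexes III and V were at -0.19 and -0.12.

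Summed over members, nuclear subunits reached 10321, 10734, 10769 and 9913 CPM in the 4 high-salt libraries and 10853, 9823, 11030 and 10394 CPM in the 4 normal-chow libraries. The 2 ranges coincide almost fully. Mitochondrial subunits summed to 75342, 68406, 87457 and 75426 CPM in high-salt libraries and 81536, 80730, 86640 and 83782 CPM in normal-chow libraries. In 3 high-salt libraries the sum was under the lowest normal-chow value, and in high-salt library 3 it was above the highest. Without that library the median log2 fold change of mitochondrial members was -0.19. Reads of mitochondrial members took 7.16% to 8.74% of all counts in high-salt and 7.98% to 8.36% in normal-chow libraries, and those of nuclear members 1.01% to 1.12% in high-salt and 0.981% to 1.06% in normal-chow libraries.

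**Figure D2:**
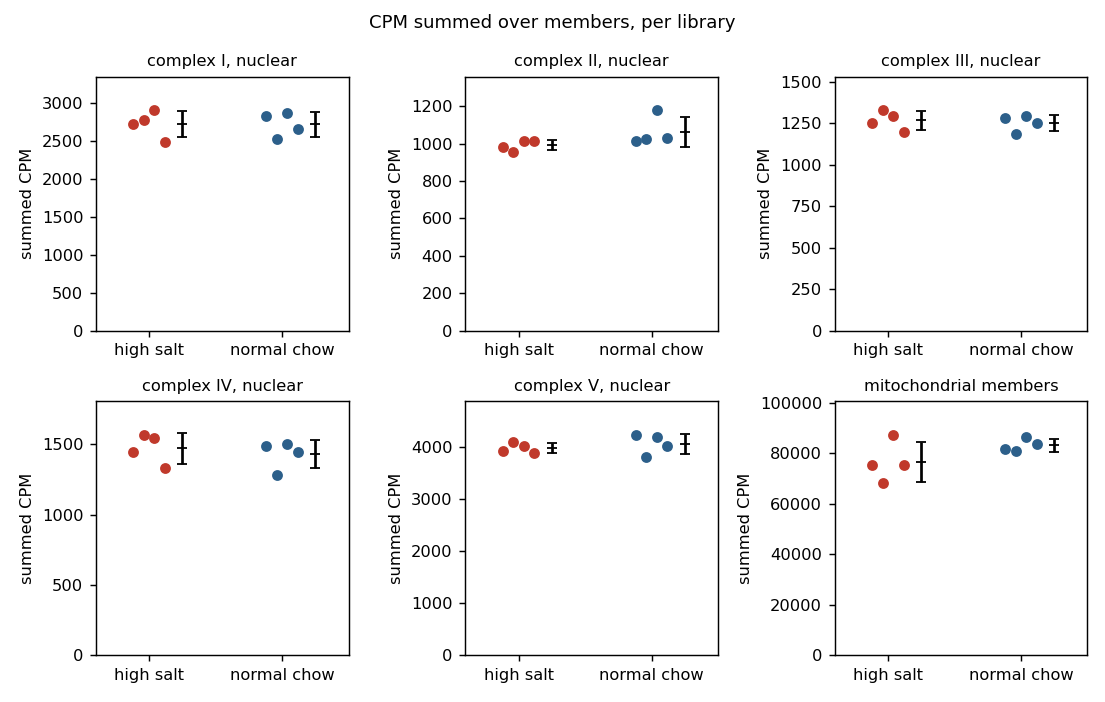
CPM summed over the members of each group in each library, with high salt on the left and normal chow on the right; points are libraries, and bars are the mean and SD of 4 libraries. The diets overlap in every panel, and high-salt library 3 stands above the other high-salt libraries for mitochondrial members (87457 CPM).

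The ratio of mitochondrial to nuclear counts was 7.30, 6.37, 8.12 and 7.61 in high-salt libraries and 7.51, 8.22, 7.86 and 8.06 in normal-chow libraries. High-salt library 2 had the lowest ratio, and the diets overlap.

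The mitochondrial messages differed far more from each other than between diets. Scaled by length, mt-Co1, the catalytic subunit of complex IV, averaged 24280 CPM per kb over the 8 libraries, and mt-Cytb, the cytochrome b of complex III, 12534 CPM per kb. mt-Nd1 and mt-Nd2 of the membrane arm of complex I reached 8264 and 7679 CPM per kb, mt-Nd4 and mt-Nd5 3931 and 3208 CPM per kb, and mt-Nd6, the only one transcribed from the opposite strand, 1288 CPM per kb. The remaining 5 were much lower: mt-Co2 at 135, mt-Co3 at 109, mt-Atp6 at 82.9, mt-Nd4l at 22.7 and mt-Nd3 at 14.7 CPM per kb. Together with mt-Atp8 and some tRNAs these 5 fill 1 stretch of the mitochondrial genome, from base 7013 to base 10173.

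The same 5 genes are those whose sequence also occurs almost whole in annotated transcripts of other genes. Copies in the nuclear genome without an annotated transcript were not searched for. Of all 50-base windows of their transcripts, 98.0% (mt-Nd3), 98.8% (mt-Nd4l), 100% (mt-Co2), 99.9% (mt-Co3) and 99.5% (mt-Atp6) also occur in an annotated transcript of another gene. The share was 62.2% for mt-Nd4, 51.1% for mt-Co1, 8.19% for mt-Nd2, 7.61% for mt-Nd5 and 0 for mt-Nd1, mt-Nd6 and mt-Cytb. Windows of mt-Nd2 occur in the pseudogene Gm13339, and those of mt-Nd5 in Gm4076 and Gm11407. Those of mt-Co1 occur in Gm13340 and Gm11512 besides the copy given below. mt-Co2 and mt-Atp6 also share windows with Gm13341 and AC124578.3. The places of these pseudogenes were not examined. The copies described next belong to a nuclear insertion of mitochondrial DNA on the minus strand of chromosome 1. In GRCm38 the copy of mt-Co2 is Gm28661 at chr1:24614885-24615565, with 681 of 681 bases identical. Those of mt-Atp6 (Gm10925), mt-Co3 (Gm28437), mt-Nd4l (Gm10222) and the first part of mt-Nd4 (Gm28439) were identical over all 678, 783, 294 and 876 aligned bases. The copy of mt-Nd3 (Gm28438) matched at 344 of 345 bases, and that of a part of mt-Co1 (Gm29216) at 486 of 492.

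The stretches shown next are printed because reads of such letters match the gene and its copy alike. Reads over the marked base of mt-Nd3 are the exception. They are 60 bases of mt-Co2 (chrM:7325-7384, plus strand), the same part of its copy (chr1:24615194-24615253, minus strand), the first 60 bases of mt-Nd3 (chrM:9459-9518, plus strand) and those of its copy (chr1:24613060-24613119, minus strand), from GENCODE M21 transcripts of GRCm38. The capital marks the only base that differs, T3C with the base of mt-Nd3 given before that of the copy and positions counted from 1 at the start of mt-Nd3.
mt-Co2: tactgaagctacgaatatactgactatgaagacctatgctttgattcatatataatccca
Gm28661: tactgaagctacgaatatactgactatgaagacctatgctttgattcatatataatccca
mt-Nd3: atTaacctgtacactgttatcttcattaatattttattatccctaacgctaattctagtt
Gm28438: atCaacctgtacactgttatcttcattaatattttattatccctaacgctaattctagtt

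Reads were counted on the nuclear copies as well. Gm10925 averaged 178 CPM in high-salt and 204 CPM in normal-chow libraries, more than mt-Atp6 itself, at 54.2 ± 12.1 CPM in high-salt and 58.7 ± 1.72 CPM in normal-chow libraries (SD, n = 4 each). Gm28437, the copy of mt-Co3, averaged 91.1 CPM in high-salt and 79.7 CPM in normal-chow libraries, and mt-Co3 85.1 ± 4.25 CPM in high-salt and 86.3 ± 17.4 CPM in normal-chow libraries. The sources used here do not say how reads with more than 1 matching place were counted. The levels of these 5 members, and of mt-Co1 and mt-Nd4 in part, are therefore uncertain, and the part of the shared sequence in their low levels was not tested.

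**Figure D3:**
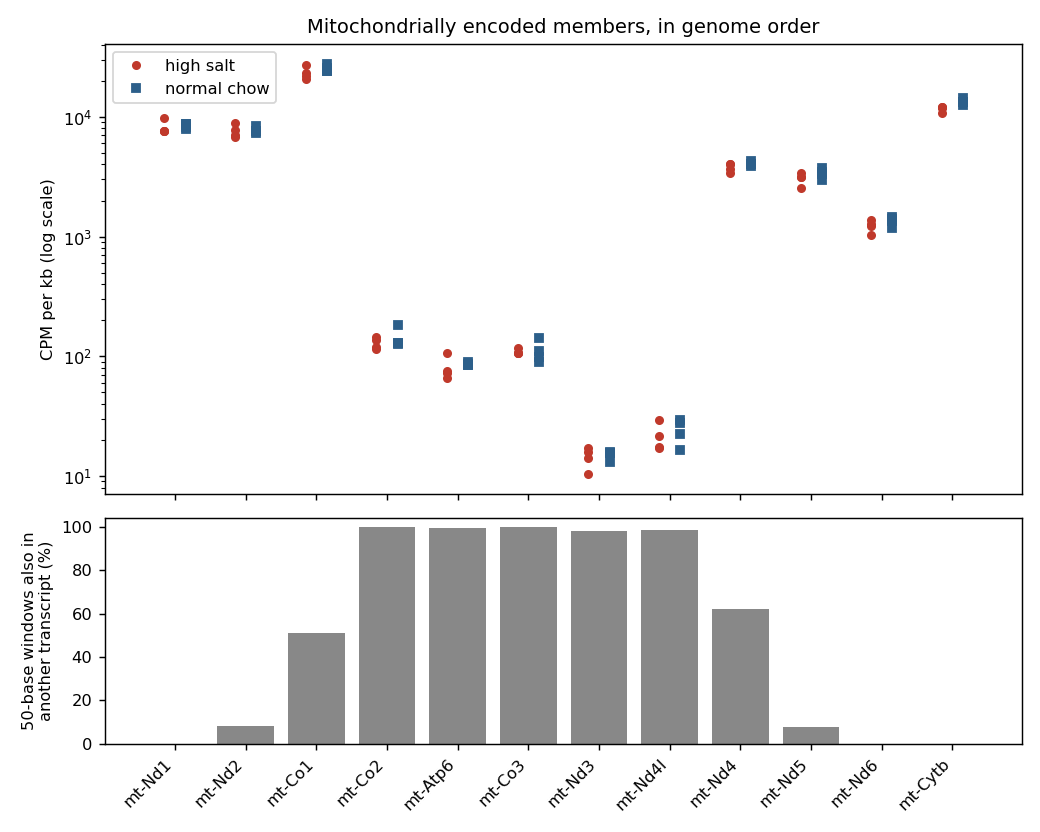
Level of the 12 mitochondrial members in each library, in CPM per kb on a log scale and in the order of the genes on mitochondrial DNA (upper panel, high salt as circles left of normal chow as squares), above the percent of 50-base windows of each transcript that also occur in a transcript of another gene (lower panel). The 5 genes from mt-Co2 to mt-Nd4l have shares of 98.0% or more and averages of 14.7 to 135 CPM per kb, against 1288 to 24280 for the other 7.

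Among mitochondrial members of complex III, mt-Cytb had no overlap between diets. Its levels were 13833, 12324, 13865 and 13559 CPM in high-salt and 16383, 14356, 15225 and 15168 CPM in normal-chow libraries. Each high-salt library was under the lowest normal-chow library. The log2 fold change was -0.19 ± 0.08 (SE), with an unadjusted p of 0.030 and an adjusted p of 0.397. Diets without overlap occurred in 6.36% of all genes, 3.37% with the lower values in high salt, and mt-Cytb was the only member of 89 with lower values of this kind. Its transcript shares no 50-base window with an annotated transcript of another gene.

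mt-Co1, the most abundant member, had 34036, 31731, 42289 and 35597 CPM in high-salt and 37428, 37289, 42338 and 39397 CPM in normal-chow libraries. High-salt library 3 lay within the normal-chow range and the other 3 below it, with a log2 fold change of -0.12 ± 0.09 and an adjusted p of 0.697. For complex I, mt-Nd1 and mt-Nd2 had log2 fold changes of -0.04 ± 0.10 and -0.03 ± 0.09, both above 0 with total-count library sizes. mt-Nd4, mt-Nd5 and mt-Nd6 stood at -0.09 ± 0.08, -0.15 ± 0.10 and -0.14 ± 0.10. The 5 members with almost whole annotated nuclear copies ranged from -0.17 ± 0.21 for mt-Nd4l to -0.02 ± 0.12 for mt-Co3. The value of mt-Co3 was above 0 with total-count library sizes. The median of these 5 was -0.12, against -0.12 for the other 7.

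Complex II oxidises succinate to fumarate in the citric acid cycle. It was the nuclear group in which all members, 4 of 4, had a value below 0, and Sdhd was above 0 with total-count library sizes. Sdhb, the iron-sulfur subunit (chr4:140961203-140979193), had 160, 166, 192 and 187 CPM in high-salt libraries and 205, 188, 236 and 196 CPM in normal-chow libraries. The highest high-salt library, library 3, was above the lowest normal-chow library, so the diets overlap. Its log2 fold change of -0.23 ± 0.09 had an unadjusted p of 0.032 and an adjusted p of 0.409.

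Sdha, the flavoprotein that holds the active site, had 483, 435, 483 and 489 CPM in high-salt and 471, 483, 567 and 481 CPM in normal-chow libraries, with a log2 fold change of -0.08 ± 0.09. Normal-chow library 3 stood above the rest, and without it the value was -0.02. Sdhc and Sdhd, which anchor the complex in the membrane, were at -0.09 ± 0.07 and -0.03 ± 0.08. The 4 genes summed to 983, 955, 1013 and 1014 CPM in high-salt and 1012, 1023, 1179 and 1032 CPM in normal-chow libraries, an overlap of only the highest 2 and the lowest 1.

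Complex I had the most members, and none of its 37 nuclear genes reached an unadjusted p under 0.05. Ndufa9, an accessory subunit that takes part in the link between its arms, had the smallest p among values below 0. It was at 88.8, 87.4, 108 and 89.1 CPM in high-salt and 107, 99.2, 111 and 97.6 CPM in normal-chow libraries. High-salt library 3 was alone within the normal-chow range, and the log2 fold change was -0.15 ± 0.09 with an adjusted p of 0.575. Ndufa12 followed with -0.14 ± 0.09. On the other side of 0 were Ndufa4, at 0.13 ± 0.09, and Ndufb11, at 0.12 ± 0.10.

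Ndufa4 was named for complex I and is today assigned to complex IV. It also had the highest nuclear level per length of its group, at 564 CPM per kb, followed by Ndufa6 with 386 CPM per kb. The catalytic core of complex I, which holds the flavin and the iron-sulfur clusters, was described by Ndufs1, at -0.04 ± 0.07, and Ndufv1, the flavin-binding subunit, at 0.00 ± 0.07. Ndufb2 was represented by only 291 reads, and no level per length is given for it because its annotated length comes from long isoforms.

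Complex III showed the narrowest spread, with log2 fold changes from -0.01 to 0.07 over its 8 nuclear genes. Uqcrfs1, the Rieske iron-sulfur protein, had 208, 220, 216 and 211 CPM in high-salt and 223, 209, 213 and 211 CPM in normal-chow libraries, a difference of -0.003 ± 0.07. Uqcrc2, a core protein, was at -0.01 ± 0.08, and Uqcr10 had the highest value with 0.07 ± 0.09. The most abundant per length were Uqcrq and Uqcrh, at 423 and 310 CPM per kb. Cyc1, the cytochrome c1 of this complex, has a symbol outside the search and was at -0.01 ± 0.07.

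Nuclear members of complex IV ranged from -0.12 to 0.22. Cox7a2 had the highest value, with 93.2, 119, 105 and 77.6 CPM in high-salt and 101, 70.9, 83.6 and 84.3 CPM in normal-chow libraries. The lowest high-salt library was under 3 of the normal-chow libraries, and the log2 fold change was 0.22 ± 0.13 with an adjusted p of 0.601. Cox4i1 followed with 0.09 ± 0.08. Cox5b, a structural subunit on the matrix side, had the lowest value with -0.12 ± 0.09, followed by Cox5a with -0.06 ± 0.07. The most abundant per length were Cox7c and Cox6a1, at 367 and 356 CPM per kb.

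The subunits that exist in tissue forms were read almost only in the forms known from liver. Cox4i1, Cox6a1, Cox6b1, Cox7a2 and Cox8a averaged 127, 209, 131, 98.7 and 122 CPM in high-salt and 120, 198, 133, 84.8 and 122 CPM in normal-chow libraries. Their counterparts Cox4i2, known from lung, Cox6a2 and Cox8b, known from heart and skeletal muscle, and Cox6b2, known from testis, had 15, 11, 4 and 21 reads over all 8 libraries and thus fell short of 80. Cox7a1, the heart and muscle form of Cox7a2, was the member nearest to the threshold with 83 reads and was not tested. It had 11, 9, 11 and 10 reads in high-salt and 17, 9, 8 and 8 reads in normal-chow libraries. Next inside were Ndufa4l2 with 164 reads and Ndufb2 with 291.

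Also under the threshold were mt-Atp8, the other mitochondrial gene of complex V, with 21 reads, and the pseudogenes Atp5k-ps2, Atp5l2-ps, Atp5l-ps1 and Uqcrh-ps1 with 38, 31, 21 and 4 reads. mt-Atp8 shares no 50-base window with an annotated transcript. It lies between mt-Co2 and mt-Atp6, 230 bases apart on mitochondrial DNA, and their copies on chromosome 1 stand 233 bases apart. How reads from that stretch were placed was not tested.

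ATP synthase held the most abundant nuclear members. Atp5b, the catalytic beta subunit, had 1100, 1173, 1079 and 1105 CPM in high-salt and 1209, 1079, 1169 and 1133 CPM in normal-chow libraries. The ranges overlap, with a log2 fold change of -0.04 ± 0.08. Atp5a1, the alpha subunit, was at 918 to 954 CPM in high-salt and 946 to 989 CPM in normal-chow libraries, a difference of -0.03 ± 0.07. Atp5g1 and Atp5c1, which encode the ring-forming c subunit and the central stalk, were at -0.11 ± 0.08 and -0.07 ± 0.08. Atp5g2 and Atp5g3, whose products give the same mature c subunit as Atp5g1, were at 0.02 ± 0.09 and -0.01 ± 0.09. Atp5l was at 0.10 ± 0.10, but 84.8% of its 50-base windows also occur in other transcripts, mostly of pseudogenes, so its level is uncertain.

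Atp5s was the member with the largest difference. It had 9.72, 10.3, 10.5 and 8.60 CPM in high-salt and 8.29, 7.64, 6.25 and 6.57 CPM in normal-chow libraries. Every high-salt library lay above every normal-chow library, as in 2.98% of all genes in this direction. The log2 fold change was 0.44 ± 0.13, with an unadjusted p of 0.004 and an adjusted p of 0.192. The authors' deposited table gives a fold change of 1.36 with an adjusted p of 0.149. Atp5s was named as a coupling factor of ATP synthase and is not among its structural subunits. Atp5sl, the related gene known to act in complex I assembly, was at -0.03 ± 0.10.

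**Figure D4:**
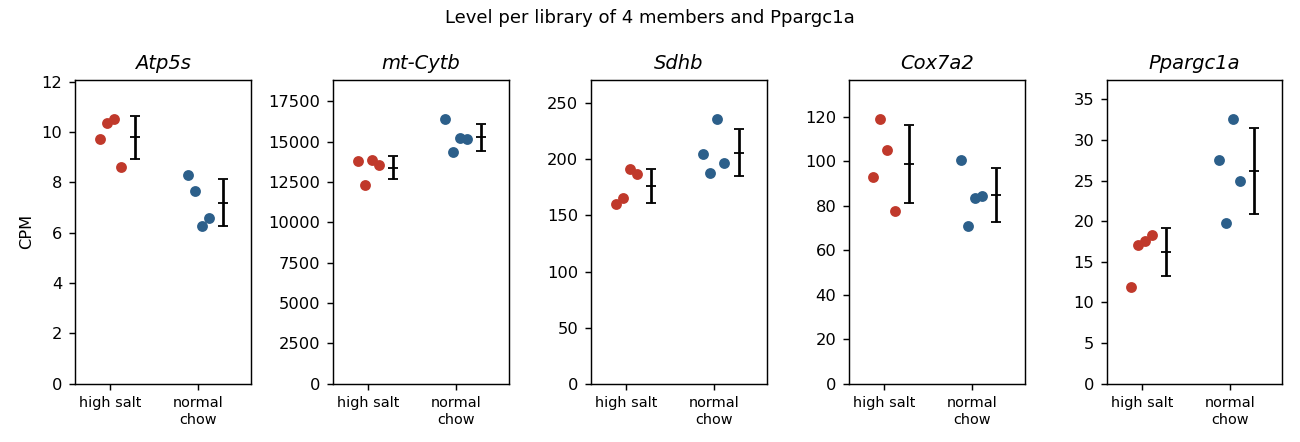
Level of Atp5s, mt-Cytb, Sdhb, Cox7a2 and the regulator Ppargc1a in each library in CPM, with high salt left of normal chow; points are libraries, and bars are the mean and SD of 4 libraries. The diets do not overlap for Atp5s, mt-Cytb and Ppargc1a and overlap for Sdhb and Cox7a2.

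Nuclear members varied together from library to library by transcript length. For the 33 nuclear members under 700 bases, the median deviation from the 8-library mean was 0.02, 0.06, 0.10 and -0.11 on the log2 scale in the 4 high-salt libraries and 0.08, -0.17, 0.07 and -0.05 in the 4 normal-chow libraries. Each diet had libraries on both sides of 0. The 301 tested protein-coding genes of that length had -0.04, 0.06, 0.07 and -0.09 in high-salt and 0.10, -0.11, 0.03 and -0.06 in normal-chow libraries. In members and in short transcripts of all kinds, normal-chow library 2 and high-salt library 4 were the lowest. Members of 1200 bases or more deviated by -0.03 to 0.07.

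The log2 fold changes were ordered by length as well. The median was 0.02 for the 32 tested nuclear members under 700 bases, 21 of them above 0, against -0.01 for 23 members of 700 to 1200 bases and -0.03 for 22 longer ones, 6 of them above 0. Across the 77 nuclear members Spearman's rho of fold change and length was -0.41, and across 12175 protein-coding genes -0.02. The medians of all tested protein-coding genes had the same order. They were 0.02 for 301 genes under 700 bases, 0.01 for 1093 of 700 to 1200 bases and 0.004 for 10781 longer ones. Genes of 1 set of libraries are not independent, so no p is given. Without normal-chow library 2 the nuclear median was -0.05, and 64 nuclear members were below 0. Ndufb2 was placed among the longer members by an annotated length that comes from long isoforms. The part of transcript length in the differences between diets was not tested.

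**Figure D5:**
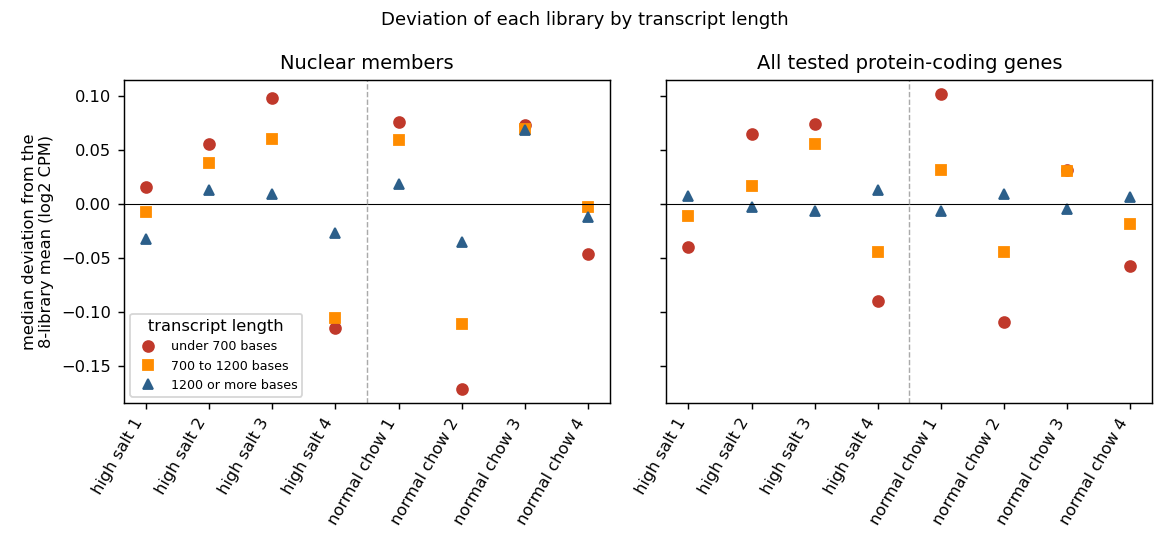
Median deviation of log2 CPM from the 8-library mean in each library, for nuclear members (left) and all tested protein-coding genes (right), in 3 classes of transcript length; the dashed line separates high salt from normal chow. Transcripts under 700 bases deviate most, downwards in normal-chow library 2 (-0.17 for members, -0.11 for all genes) and high-salt library 4 (-0.11 and -0.09).

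Nuclear subunit genes are known targets of the transcription factors NRF1, GABP (an ETS factor) and YY1. RefSeq promoter windows of 300 bases, from 250 bases before to 50 bases after the start in GRCm38.p6, were found for 63 of the 78 nuclear members. Both strands were searched for exact words. The NRF1 word CGCATGCG, which reads the same on both strands, occurred in 9 members, 14.3%, against 2.07% of 27025 genes. The YY1 word AAGATGGC also occurred in 9 members, 14.3%, against 3.19% of genes. The ETS word CCGGAAGT occurred in 5 members, 7.94%, against 4.31%, and the TATA word TATAAA in 5 members, 7.94%, against 15.7%. Uqcr11 held the words of NRF1 and ETS, and Atp5j those of NRF1 and YY1. A match is a description of letters, not a binding site.

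A promoter with each word is printed, in the sense of the gene and with the word in capitals. They are those of Cox6a1 (NRF1, chr5:115348909-115349208, minus strand), Uqcrh (ETS, read on the opposite strand, chr4:116075021-116075320, minus strand) and Ndufa9 (YY1, chr6:126849095-126849394, minus strand).
Cox6a1: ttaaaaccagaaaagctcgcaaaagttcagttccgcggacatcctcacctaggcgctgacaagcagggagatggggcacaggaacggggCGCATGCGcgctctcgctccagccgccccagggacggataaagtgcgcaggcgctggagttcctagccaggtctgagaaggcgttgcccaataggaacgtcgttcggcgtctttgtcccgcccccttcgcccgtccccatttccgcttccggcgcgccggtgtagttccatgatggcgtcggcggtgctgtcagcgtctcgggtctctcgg
Uqcrh: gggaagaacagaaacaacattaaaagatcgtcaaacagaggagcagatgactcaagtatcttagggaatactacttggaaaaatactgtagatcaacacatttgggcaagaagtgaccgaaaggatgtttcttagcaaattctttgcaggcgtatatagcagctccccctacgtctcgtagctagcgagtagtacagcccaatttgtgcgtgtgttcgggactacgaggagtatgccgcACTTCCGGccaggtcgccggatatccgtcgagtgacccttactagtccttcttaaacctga
Ndufa9: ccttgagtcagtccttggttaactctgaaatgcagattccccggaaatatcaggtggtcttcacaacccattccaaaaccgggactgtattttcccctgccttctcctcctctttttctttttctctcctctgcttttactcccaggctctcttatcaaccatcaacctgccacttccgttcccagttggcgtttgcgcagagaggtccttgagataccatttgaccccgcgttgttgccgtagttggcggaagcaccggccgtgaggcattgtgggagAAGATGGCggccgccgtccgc

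The members with each word lay near 0. The 9 with the NRF1 word had log2 fold changes from -0.09 (Ndufa8) to 0.10 (Atp5l). The 5 with the ETS word ranged from -0.03 (Atp5h) to 0.05 (Uqcrh), and the 9 with the YY1 word from -0.15 (Ndufa9) to 0.04 (Ndufs4). The factors themselves, named for these words and not for their values, were at 0.07 ± 0.14 (Nrf1), -0.06 ± 0.07 (Gabpa) and 0.15 ± 0.10 (Yy1).

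Of 15 tested nuclear regulators of the respiratory chain, 0 were called by edgeR, beside 0.300% of all genes. At an unadjusted p under 0.05, 2 were lower and 0 higher, beside 5.60% and 5.33% of all genes. Ppargc1a, a coactivator of mitochondrial biogenesis and of gluconeogenesis in fasted liver, had 11.9, 17.1, 17.5 and 18.4 CPM in high-salt and 27.5, 19.8, 32.5 and 24.9 CPM in normal-chow libraries. Every high-salt library lay below every normal-chow library, as in 3.37% of all genes in this direction. The log2 fold change was -0.69 ± 0.16, with an unadjusted p of 0.0013 and an adjusted p of 0.136 by edgeR. DESeq2 called it lower with an adjusted p of 0.0068, and so did edgeR without a filter on low counts, with 0.016; over all 17 alternatives the adjusted p was 0.0068 to 0.281, and the value was below 0 in each. Myc, a transcription factor of growth, was the other, at -0.61 ± 0.26 with an adjusted p of 0.416.

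Factors that make and stabilise mitochondrial RNA numbered 27, of which 20 were below 0, beside 48.7% of all genes. Their median was -0.05, and 0 were called. At an unadjusted p under 0.05, 2 were lower, beside 5.60% of all genes. These 2 were Pnpt1, an RNA-processing enzyme, at -0.23 ± 0.10, and Tefm, the elongation factor of mitochondrial transcription, at -0.29 ± 0.13. Of 78 tested proteins of the mitochondrial ribosome, 41 were below 0, with a median of -0.01 and 0 called. At an unadjusted p under 0.05, 3 were higher and 1 lower, beside 5.33% and 5.60% of all genes. Mrps26 was at 0.28 ± 0.11 and Mrpl15 at -0.21 ± 0.08. mt-Rnr1, the small ribosomal RNA of mitochondrial DNA, was at -0.16 ± 0.12. mt-Rnr2, the large one, was at 0.002 ± 0.19, and mt-Tp, a tRNA, at 0.12 ± 0.10.

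Assembly factors were not called for any complex. For complex I, 12 of 17 were below 0, beside 48.7% of all genes, with a median of -0.11. Ndufaf6 had 12.6, 13.2, 14.6 and 11.1 CPM in high-salt and 14.9, 15.9, 15.8 and 15.5 CPM in normal-chow libraries. These ranges do not overlap, as in 3.37% of all genes in this direction. The log2 fold change was -0.27 ± 0.10 with an adjusted p of 0.359. Acad9, an acyl-CoA dehydrogenase that also serves complex I assembly, was at -0.27 ± 0.14. For complex II, 3 of 3 tested factors were below 0 with a median of -0.09, with Sdhaf2 at -0.09 ± 0.09 and Sdhaf4 at -0.15 ± 0.18. For complex III, 4 of 7 were below 0 with a median of -0.08. At an unadjusted p under 0.05, 2 were lower, beside 5.60% of all genes. These were Bcs1l, which inserts the Rieske protein, at -0.28 ± 0.11, and Lyrm7, its chaperone, at -0.70 ± 0.29 on levels of 0.882 to 2.40 CPM in high-salt and 1.99 to 3.46 CPM in normal-chow libraries. For complexes IV and V, 13 of 21 and 2 of 4 were below 0, with medians of -0.04 and 0.0003. Cox18 and Surf1 of the first list were at -0.24 ± 0.16 and -0.13 ± 0.08, and Atpaf2 and Fmc1 of the second at 0.07 ± 0.10 and -0.04 ± 0.12.

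Enzymes that feed electrons into ubiquinone showed values in both directions, with 6 of 9 above 0 and 3 below. Values below 0 made up 48.7% of all genes. Of these 9 enzymes 0 were called, beside 0.300% of all genes. At an unadjusted p under 0.05, 1 was higher (Etfdh) and 0 lower, beside 5.33% and 5.60%. Etfdh, which passes electrons from fatty acid oxidation, had 346, 252, 313 and 279 CPM in high-salt and 242, 238, 261 and 251 CPM in normal-chow libraries. The diets overlap, since high-salt library 2 lies within the normal-chow range, and the log2 fold change was 0.26 ± 0.10 with an unadjusted p of 0.019 and an adjusted p of 0.346. Prodh, the proline dehydrogenase, was at -0.56 ± 0.25 with an adjusted p of 0.467. Of 13 genes of ubiquinone synthesis, 7 were below 0, beside 48.7% of all genes. Coq10b and Coq2 had -0.20 ± 0.08 and -0.19 ± 0.08.

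Among 6 tested carriers for ATP, ADP and phosphate, Vdac1, the channel of the outer membrane, had 175, 187, 197 and 208 CPM in high-salt and 210, 222, 215 and 221 CPM in normal-chow libraries. The ranges do not overlap, as in 3.37% of all genes in this direction. The log2 fold change was -0.18 ± 0.08 with an adjusted p of 0.437. Slc25a4, an ADP/ATP exchanger, was at 0.17 ± 0.15. Of 11 genes of uncoupling and mitochondrial antioxidant defence, 7 were below 0, with Txn2 at -0.12 ± 0.07 and the superoxide dismutase Sod2 at -0.13 ± 0.08. Of 8 tested subunits and carriers whose symbols fall outside the search, 5 were below 0, with Higd1a at -0.27 ± 0.13, Usmg5 at 0.14 ± 0.12 and cytochrome c (Cycs) at 0.03 ± 0.09. Values below 0 made up 48.7% of all genes. Of the other genes in the lists, Bcs1l, Mrpl15, Coq2 and Txn2 were also lower in high salt without overlap. In the other direction 1 protein of the mitochondrial ribosome had no overlap, as in 2.98% of all genes. The adjusted p-values of the genes named from these lists, other than Ppargc1a, were 0.346 or higher.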

How the data were processed

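Raw counts for each gene in each of the 8 libraries stand in the 1 table the authors deposited, without normalization, per the file headers. Per the file headers it also holds the authors' linear fold change (a ratio), its log2 value, and p-values with adjusted p-values, which were used only where named. Tools named in the submitters' processing notes, without roles, are HTSeq 0.6.0, HISAT2 2.1.0 and StringTie 1.3.2d, with build GRCm38. Not given in the sources used here are the annotation release, how strand was set and what became of multiply matching reads. Per the labels' protocols, RNA of frozen livers was taken with Trizol and prepared with Illumina's TruSeq RNA kit.

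Counts were tested with edgeR 4.0.16 in R 4.3.3 (TMM, filterByExpr, robust quasi-likelihood fit of diet, all 8 libraries, two-sided, called at an adjusted p under 0.05), which was also tested on simulated counts. SE is the size of the log2 fold change divided by the square root of F. DESeq2 1.42.0, limma-voom 3.58.1, other library sizes and filters, a replicate block and leaving out each library were alternatives. Lengths are median lengths of basic protein-coding transcripts of GENCODE M21, and shared windows are exact 50-base matches among its transcripts. 1 emptied line of the table was not analysed here. Promoters are from RefSeq. No replicates differed so little as to be 1 library deposited more than once. Members and gene lists were chosen with earlier results of these data known, so no p over a list is given. Named genes are all mitochondrial members, complex II, the 2 highest per length and up to 2 of smallest p in each direction per complex, tissue forms, genes near the threshold and up to 2 of smallest p per list. Ndufs1, Ndufv1, Ndufb2, Atp5sl, Cyc1, Cycs, mt-Rnr2 and the promoter genes with their factors were added for their function.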

Additional observations from a re-analysis of the deposited data

Results flagged for a closer look

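Values were compared within each diet for 182 groups of 4 libraries, and 12 held a library whose gap to the nearest of the others, as a part of the group's range, exceeded Dixon's 95% critical value for 4 values. Chance gives about 1 in 20 such groups, and no explanation was tested. High-salt library 3 stood high for mt-Nd1 (9385 CPM, others 7235 to 7325), mt-Co3 (91.49 CPM, others 82.73 to 83.52) and Ndufa9 (108.5 CPM, others 87.38 to 89.15). High-salt library 2 stood low for Sdha (435.5 CPM, others 482.5 to 489.4), and high-salt library 1 stood high for Mrps26 (18.13 CPM, others 14.99 to 15.48). Normal-chow library 3 stood high for Sdha (566.6 CPM, others 471.5 to 482.8), for summed complex II (1179 CPM, others 1012 to 1032) and for mt-Co2 (125.4 CPM, others 86.22 to 87.89). Normal-chow library 1 stood low for mt-Nd3 (4.577 CPM, others 5.414 to 5.522) and for summed mitochondrial complex I (27492 CPM, others 28824 to 28959), and high for Cox7a1 (0.985 CPM, others 0.4419 to 0.5208). Normal-chow library 2 stood low for Atp5g2 (68.75 CPM, others 79.9 to 81.31).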

How the results depend on the processing

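Of 2083 recomputed values for 126 results under 18 settings, 2067 kept their side of the threshold or stayed within the spread of the libraries. Members called remained 0 in each setting, while genes called over the whole table numbered 40, against 32 with total counts, 220 without a filter, 238 by DESeq2, 17 by limma-voom and 4 to 57 with 1 library left out. Members higher at an unadjusted p under 0.05 numbered 1, against 2 with total counts and 1 to 2 with 1 library left out. Those lower numbered 2, against 0 with total counts, 1 (Sdhb) with mitochondrial rows left out and 0 to 5 with 1 library left out: 5 without high-salt library 3, 0 without high-salt library 2 or normal-chow library 3, and 1 without high-salt library 1 or normal-chow library 1. The log2 ratio of summed nuclear levels was 0.077 for complex III and 0.032 for complex V with total counts, against 0.02 and -0.03. Regulators called lower numbered 1 (Ppargc1a) without a filter, at -0.70, and by DESeq2, at -0.69, against 0. The cause of these differences was not tested. The replicate numbers of the titles are shared by the diets, but deviations of same-numbered libraries correlated at -0.16, -0.22, 0.12 and -0.003, so the numbers were not taken as pairs. With a replicate block 11 genes and 0 members were called. With 4 libraries per diet at these depths, 86 of 89 intervals included 0, and 52 lay within 1.2-fold. The shares over all tested genes were 89.1% and 17.1%.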
